A study of Mus musculus with 8 samples.

Results

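The IkB genes are a family of 6 in this table: Nfkbia, Nfkbib and Nfkbie, which encode the classical proteins IkB-alpha, IkB-beta and IkB-epsilon, and Nfkbid, Nfkbiz and Bcl3, which encode the atypical proteins IkB-NS, IkB-zeta and Bcl-3. They were taken by gene symbol from a table of read counts for 23143 genes, in which each symbol had 1 row. The counts came from RAW264.7 cells, a transformed mouse macrophage cell line, left untreated (0 min) or treated with 100 ng/ml lipopolysaccharide (LPS) of E. coli, the cell wall component of Gram-negative bacteria that Toll-like receptor TLR4 recognizes, for 15, 30, 45, 60, 75, 90 or 120 min. Each of the 8 time points was 1 RNA-seq library, so no value below has a replicate, and every comparison is between libraries and not between conditions. The labels give the RNA fraction as cytoplasmic and the molecule as total RNA, whereas the study's methods describe total RNA. Since these are bulk samples, fewer expressing cells and less mRNA per cell cannot be told apart.

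Classical IkB proteins hold NF-kB dimers in the cytoplasm through their ankyrin repeats. LPS activates the IkB kinase complex, which phosphorylates them and marks them for ubiquitination by the SCF beta-TrCP ligase and degradation by the proteasome, and the freed NF-kB enters the nucleus and activates genes that include Nfkbia itself. The IkB-alpha made anew returns NF-kB to the cytoplasm, a textbook negative feedback loop, whereas IkB-beta and IkB-epsilon act more slowly. The atypical proteins are mostly nuclear and act at promoters: IkB-zeta is a coactivator of secondary response genes such as Il6 and Lcn2, IkB-NS mainly represses and in some settings activates cytokine genes, and Bcl-3 binds homodimers of p50 and p52.

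NF-kB binds 10-base kB sites, and the sites shown here are the matches to the kB consensus, on either strand, in the reference promoters of the family (RefSeq, GRCm38). A promoter is the window from 250 bases before to 50 bases after an annotated start. Capitals mark the match, the flanks are in lower case, and each window is written in the direction of its gene.
Nfkbia: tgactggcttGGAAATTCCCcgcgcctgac
Nfkbie: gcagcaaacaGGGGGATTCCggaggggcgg
Nfkbid, distal site: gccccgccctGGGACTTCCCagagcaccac
Nfkbid, proximal site: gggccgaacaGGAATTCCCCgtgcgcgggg
Bcl3: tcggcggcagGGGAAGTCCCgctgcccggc

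Nfkbia spans chr12:55489409-55492647 (minus strand), Nfkbie chr17:45555700-45563169 (plus strand), Nfkbid chr7:30421731-30428749 (plus strand) and Nfkbiz chr16:55811375-55838954 (minus strand). The Nfkbia window lies at chr12:55492657-55492686 on the minus strand, with the match 29 bases before the start. That of Nfkbie lies at chr17:45555584-45555613 on the plus strand, 106 bases before the start. The Nfkbid windows, chr7:30422170-30422199 and chr7:30422215-30422244 on the plus strand, lie 226 and 181 bases before one of 3 annotated starts, and the promoter windows of the other Nfkbid starts hold no match. In Bcl3 the window is chr7:19822734-19822763 on the minus strand, and the match begins just after the start of the reference promoter. This start lies inside the span of the gene, whose 5′ end is at chr7:19822824. The Nfkbib promoter holds none, and 5 of the 6 genes have a promoter in the reference table, Nfkbiz being the one that is not analysed here. The consensus is held by 4.51% of the 32851 promoters. A match is a string of letters and was not measured as a bound site.

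A second set of sequences concerns mRNA decay. The constitutive decay element (CDE) is a short 3′UTR stem-loop bound by Roquin proteins and first described in Tnf mRNA. Its core was searched on the mRNA strand as TTC, a pyrimidine, a purine, a pyrimidine and GAA, a choice made after the time courses had been seen. The core occurs in 4.93% of 19018 annotated mouse 3′UTRs (GENCODE vM21, GRCm38), and in 2 of the 6 IkB genes. Capitals mark the core in these 21-base windows, with Tnf shown for comparison.
Nfkbid, upstream core: ggtgatTTCTGTGAAatcgag
Nfkbid, downstream core: gattgtTTCTGTGAAacactc
Nfkbiz: agttgtTTCTATGAAacaaac
Tnf: catgttTTCTGTGAAaacgga

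The Nfkbid windows are chr7:30428399-30428419 and chr7:30428427-30428447 (plus strand), with cores 218 and 246 bases after the stop codon. The Nfkbiz window is chr16:55812611-55812631 (minus strand), 105 bases after the stop codon, and the Tnf window is chr17:35199582-35199602 (minus strand), 549 bases after it. No core was found in the 3′UTRs of Nfkbia, Nfkbib, Nfkbie or Bcl3. The pentamer AUUUA, the unit of AU-rich decay elements, occurs 4 times in the Nfkbiz 3′UTR of 1355 bases, 2 times in that of Nfkbia (512 bases) and 1 time in that of Nfkbid (559 bases). It is not found in those of Nfkbib, Nfkbie and Bcl3, and 62.3% of all 3′UTRs hold at least 1 copy.

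Total counts per library lay between 100250892 and 159077286, and 16967 genes had a count in any library. The libraries differed in Rn45s, the 45S ribosomal RNA precursor, which made up 8.18% to 9.11% of counts at 0, 30, 60 and 120 min and 13.0% to 20.5% at 15, 45, 75 and 90 min. Values below were therefore also read within the former 4 libraries. Macrophage markers were abundant throughout, with Csf1r at 798.7 to 1087 and Lyz2 at 3059 to 4396 counts per 1000000. Cd3g, Epcam, Krt18, Col1a1 and Col1a2 had no count in any library, and Cd3e and Cd79a had at most 16.

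Before LPS the family mRNA was mostly Nfkbia. Levels of different genes can be compared only per length, so they are given as rpkm, counts per kilobase of uniquely mappable transcript and per 1000000 counts, with an exact Poisson 95% interval that covers counting error only. At 0 min the level of Nfkbia was 81.3 rpkm (80.0 to 82.5), that of Nfkbid 10.9 rpkm (10.5 to 11.3) and that of Nfkbie 4.42 rpkm (4.19 to 4.66). Nfkbib followed at 4.0 rpkm (3.75 to 4.27), Bcl3 at 1.97 rpkm (1.79 to 2.15) and Nfkbiz at 1.65 rpkm (1.55 to 1.77). The intervals of Nfkbie and Nfkbib overlapped, whereas all other neighbours in this order were separated by more than counting error.

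After LPS the 6 genes fell into an early set, Nfkbia, Nfkbid and Nfkbiz, and a late set, Nfkbib, Nfkbie and Bcl3. A gene was called higher when the log2 ratio of its normalized read count (the count divided by a size factor of the library) to that of the 0 min library exceeded 0.5 and a pairwise exact negative binomial test of the 2 libraries gave an unadjusted p below 0.05. Both limits are those of the study's methods, which however also compared later time points with earlier extremes and used another version of the test. Since the dispersion was estimated with the time points treated as replicates, the test is used here only as a rule for calling, and no p is given. At 15 min, 3 of the 6 genes were called higher (Nfkbia, Nfkbid and Nfkbiz), against 0.218% of all 16967 genes tested. The same genes were called at 30 min, against 0.937% of all genes. Nfkbib joined them at 45 min, giving 4 of 6 against 3.41% of all genes, and the same 4 were called at 60 min (3.08% of all genes) and at 75 min (4.58%). Bcl3 was added at 90 min, giving 5 of 6 against 5.31%, and Nfkbie at 120 min, giving 6 of 6 against 6.91%. No member was called lower at any time, while 5.99% of all genes were called lower at 120 min. The median log2 ratio of the 6 genes was 0.45 at 15 min, 2.03 at 45 min and 1.86 at 120 min. That of all genes tested was 0.0 at each of these times, a value that the size factors largely set in advance.

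**Figure D1:**
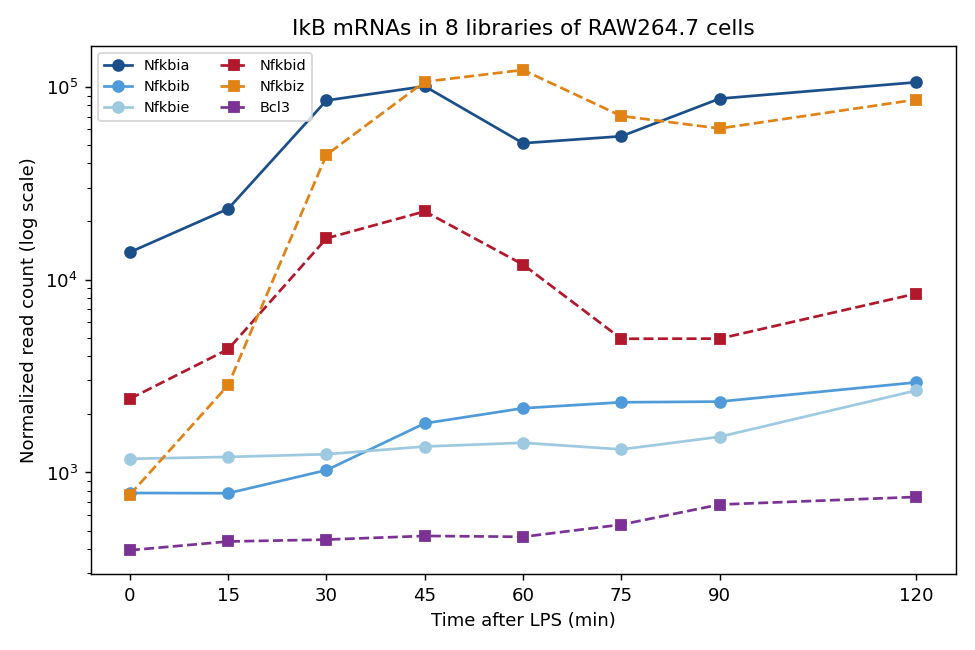
Normalized read counts (log axis) of the 6 IkB genes against time after LPS (min), 1 point per library, with solid lines and circles for classical and dashed lines and squares for atypical genes. Nfkbiz crosses from 766.5 at 0 min to 122100 at 60 min, whereas Bcl3 stays between 395.2 and 746.4.

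Nfkbia, the feedback inhibitor, rose in 2 waves. Its mRNA level, as normalized read count, was 13860, 23270, 84850 and 100500 in the libraries of 0, 15, 30 and 45 min. It was lower in the next libraries, 50930 and 55320 at 60 and 75 min, and then stood at 86700 and 105400 at 90 and 120 min. All 7 stimulated libraries thus lay above the untreated one, with maxima on either side of a trough at 60 to 75 min. Relative to 0 min this was a 1.68-fold higher level at 15 min (95% interval of the ratio of counts 1.65 to 1.71, counting error only). It was 7.25-fold at 45 min (7.13 to 7.38), 3.68-fold at 60 min (3.61 to 3.74) and 7.60-fold at 120 min (7.48 to 7.73). The 60 min library held 0.507 times the Nfkbia count of the 45 min library (0.501 to 0.512), and the 120 min library 2.07 times that of the 60 min library (2.05 to 2.09). Both maxima were of nearly the same height, the ratio of 120 to 45 min being 1.05 (1.04 to 1.06). Among the libraries with a low Rn45s share alone, Nfkbia was also lower at 60 than at 30 min, by a ratio of 0.600 (0.594 to 0.606), and higher again at 120 min. The call of Nfkbia at 15 min was lost under 4 alternatives, scaling by total counts, the edgeR dispersion trend, a log2 limit of 1 and Benjamini-Hochberg adjustment.

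The other classical genes showed no such trough in normalized counts. By rpkm, which divides by total counts, both were lower at 75 than at 60 min. Nfkbib went from 10.3 rpkm (9.90 to 10.7) to 9.38 rpkm (8.93 to 9.85). Nfkbie went from 5.00 rpkm (4.76 to 5.25) to 3.92 rpkm (3.68 to 4.18). The contrast with Nfkbia thus depends in part on the scale. Nfkbib had 782.8, 780.3, 1028 and 1797 normalized counts from 0 to 45 min and 2153, 2311, 2330 and 2931 from 60 to 120 min. Its first 2 libraries did not differ beyond counting error, with a ratio of 0.997 (0.906 to 1.1), and the steepest step was that from 30 to 45 min, at 1.75-fold (1.62 to 1.88). At 120 min it had reached 3.74-fold (3.48 to 4.03) of the 0 min level. The exons of Nfkbib (chr7:28758251-28766644, minus strand) overlap Sirt2 and Ccer2 on the opposite strand. Whether counting used strand is not given in the sources used here. Reads from the overlap may thus have been discarded or counted for another gene, and its count may be understated. The length used for its rpkm left out sequences shared with other genes on either strand (1745 of 2004 sequences of 58 bases were kept). The direction of any error in its rpkm is therefore not known.

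Nfkbie was flat for most of the course. Its normalized counts were 1177, 1204, 1243, 1363, 1425, 1317 and 1531 from 0 to 90 min in order of time, and 2661 at 120 min, the one library in which it stood apart. The ratio to 0 min was 1.30 (1.20 to 1.41) at 90 min and 2.26 (2.12 to 2.41) at 120 min. From 90 to 120 min alone its count was 1.74-fold higher (1.63 to 1.86). Nfkbie and Nfkbid were the 2 members whose log2 ratio exceeded 0.5 in this step (0.80 and 0.78), which was the case for 2.53% of the 10494 genes whose normalized count averaged 100 or more. Nfkbiz was just short of this limit, with a 1.41-fold higher count (1.40 to 1.43).

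Nfkbid peaked early and was higher again, to a lesser extent, in the last library. From 0 to 45 min its normalized counts were 2410, 4353, 16350 and 22570, and from 60 to 120 min they were 11960, 4933, 4941 and 8455. It was thus the member with the earliest highest library, and of the early genes the one that came nearest to its starting level afterwards. In folds over 0 min, Nfkbid reached 1.81 (1.72 to 1.89) at 15 min, 9.36 (9.0 to 9.75) at 45 min, 2.05 (1.95 to 2.15) at both 75 and 90 min and 3.51 (3.37 to 3.66) at 120 min. The 75 min library held 0.219 times (0.211 to 0.227) the count of the 45 min library. Its level at 75 and 90 min did not differ beyond counting error (ratio 1.0, 0.957 to 1.05), and a smaller increase followed at 120 min (1.71-fold, 1.65 to 1.78). Within the low-Rn45s libraries Nfkbid was highest at 30 min, with a ratio of 60 to 30 min of 0.731 (0.715 to 0.747) and of 120 to 30 min of 0.517 (0.505 to 0.529). Its call at 75 min, in the library with the largest Rn45s share, was lost with total counts as the scale (log2 ratio 0.70) and with Benjamini-Hochberg adjustment, and that at 15 min with a log2 limit of 1 and with the adjustment.

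Nfkbiz, the gene of the coactivator IkB-zeta, had the widest range of the 6. From 766.5 normalized counts at 0 min its level went through 2836, 44320 and 106100 at 15, 30 and 45 min to 122100 at 60 min, followed by 70450, 60740 and 85680 at 75, 90 and 120 min. Raw counts were 896 at 0 min and 137118 at 60 min, so neither end was limited by depth. The fold over 0 min was 3.70 (3.43 to 3.99) at 15 min, 57.8 (54.1 to 61.8) at 30 min, 159.3 (149.1 to 170.3) at 60 min and 111.8 (104.7 to 119.5) at 120 min. Its largest step was from 15 to 30 min, at 15.6-fold (15.1 to 16.2). Unlike the other early genes, Nfkbiz was higher at 60 than at 45 min, by a ratio of 1.15 (1.14 to 1.16), and dropped one interval later, with a ratio of 75 to 60 min of 0.577 (0.571 to 0.583). At 120 min it was still 0.702 times (0.696 to 0.707) its 60 min level.

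The steps after 45 min thus separated the early genes. A log2 ratio below -0.5 from 45 to 60 min was seen for Nfkbia (-0.98) and Nfkbid (-0.92), against 3.76% of the same 10494 genes. From 60 to 75 min it was seen for Nfkbid (-1.28) and Nfkbiz (-0.79), against 1.94% of these genes. Nfkbia, in contrast, did not decrease further in that step (ratio 1.09, 1.07 to 1.1) and was 1.57-fold higher (1.55 to 1.59) at 90 than at 75 min. From 60 to 120 min a log2 ratio above 0.5 was seen for Nfkbia (1.05), Nfkbie (0.90) and Bcl3 (0.69), against 7.47% of these genes. Nfkbiz (-0.51) and Nfkbid (-0.50) were lower in this step, in which 8.42% of these genes had a log2 ratio below -0.5. The libraries at 45 and 75 min held 16.6% and 20.5% Rn45s and that at 60 min 8.27%, and the part of this difference in these steps was not tested. The log2 ratio from 45 to 60 min lay between -1.03 and -0.89 for Nfkbia and between -0.96 and -0.83 for Nfkbid under all scales tried.

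**Figure D2:**
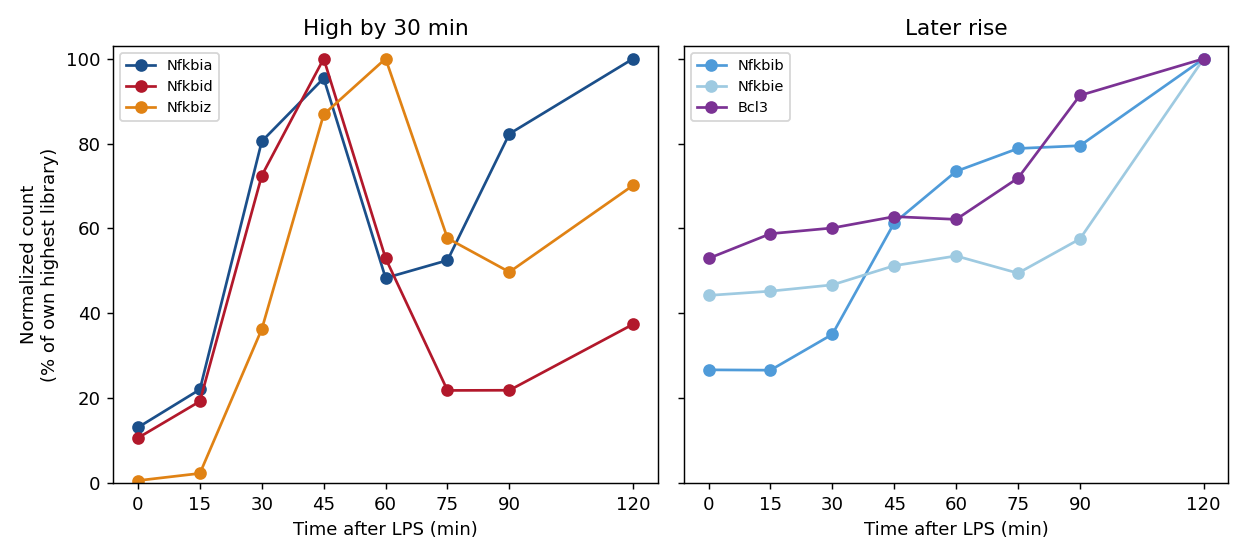
Normalized read count of each gene as a percentage of its own highest library against time after LPS (min), with Nfkbia, Nfkbid and Nfkbiz on the left and Nfkbib, Nfkbie and Bcl3 on the right, 1 point per library. Nfkbia and Nfkbid drop from 95.4% and 100% at 45 min to 48.3% and 53.0% at 60 min while Nfkbiz reaches its highest library, and Nfkbie stays at or below 57.6% until 90 min.

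Bcl3 was the least abundant member from 15 min on and the least changed. From 0 to 45 min it had 395.2, 438.7, 448.7 and 468.7 normalized counts, and from 60 to 120 min 463.9, 536.5, 681.8 and 746.4. The libraries from 15 to 60 min were close to each other, and those at 90 and 120 min stood above all others. The ratio to 0 min was 1.17 (1.03 to 1.33) at 60 min, 1.73 (1.52 to 1.96) at 90 min and 1.89 (1.69 to 2.12) at 120 min. The last 2 libraries did not differ beyond counting error (1.1, 0.983 to 1.22). Both Bcl3 calls are the least secure of the family: they were lost with total counts, with totals without Rn45s (log2 ratio of 0.72 at 120 min with either), with the edgeR dispersion trend, with a log2 limit of 1 and with Benjamini-Hochberg adjustment. Bcl3 (chr7:19808462-19822824, minus strand) overlaps an antisense gene, Gm16175, so its reads may not all be its own.

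The make-up of the IkB mRNA pool changed with time. The summed level of the 6 genes was 104, 165, 666 and 823 rpkm from 0 to 45 min and 594, 411, 570.1 and 756 rpkm from 60 to 120 min. Rpkm divides by total counts, which include Rn45s, so sums of different libraries depend on the scale. By rpkm the sum was 5.70-, 3.95- and 5.47-fold over 0 min at 60, 75 and 90 min. With size factors it was 6.09-, 4.97- and 6.56-fold, so the order of 60 and 90 min was reversed. Shares within a library do not depend on the scale. Nfkbia made up 78.0% of it at 0 min, as little as 47.1% at 60 min, and 71.1% at 120 min. The share of Nfkbiz moved the other way, from 1.59% at 0 min through 24.4% at 45 min to 41.5% at 60 min and 21.3% at 120 min. Nfkbid held 10.4% to 11.3% up to 45 min and 3.26% to 4.38% from 75 min on. At 60 min the atypical genes together made up 50.3% of the pool, against 13.9% at 0 min and 26.1% at 120 min. Nfkbib and Nfkbie each held at most 4.24% in any library, and Bcl3 at most 1.89%.

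**Figure D3:**
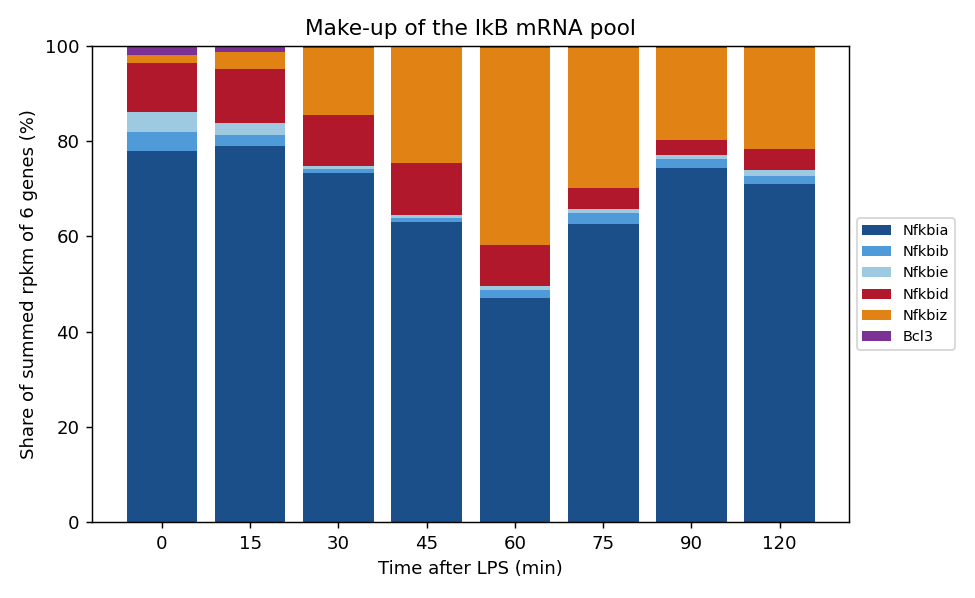
Share of each gene in the summed rpkm of the 6 IkB genes (%), 1 stacked bar per library in order of time after LPS (min). The Nfkbiz segment grows from 1.59% at 0 min to 41.5% at 60 min, where the Nfkbia segment is smallest at 47.1%.

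In order of level, Nfkbiz went from rank 6 at 0 min to rank 2 at 60 and 120 min. At 60 min Nfkbia was at 280 rpkm (277 to 282) and Nfkbiz at 246 rpkm (245 to 248), followed by Nfkbid at 50.4 rpkm, Nfkbib at 10.3 rpkm, Nfkbie at 5.00 rpkm and Bcl3 at 2.16 rpkm. No other library brought Nfkbia and Nfkbiz so close, and at 120 min they stood at 537 and 161 rpkm.

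Pairs of profiles can be described by the Pearson coefficient of log2(normalized count + 1) over the 8 libraries, which share depth and preparation within a time point. The coefficient was highest for Nfkbia with Nfkbiz (0.91), and it was 0.74 for Nfkbia with Nfkbid and 0.73 for Nfkbid with Nfkbiz. Among the late genes it was 0.85 for Nfkbie with Bcl3, 0.80 for Nfkbib with Bcl3 and 0.71 for Nfkbib with Nfkbie. The coefficient did not separate the early from the late set, since it was 0.84 for Nfkbib with Nfkbiz and 0.74 for Nfkbib with Nfkbia. The least alike were Nfkbid with Bcl3 (0.03) and Nfkbid with Nfkbie (0.17).

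Among 1568 genes that averaged at least 100 normalized counts and spanned at least 1 on the log2 scale, the genes most like each member were listed by the same coefficient. Nfkbia was closest to Tnf (0.995), the cytokine gene, followed by Dusp2 (0.986), which encodes a MAP kinase phosphatase, and Tnfaip3 (0.976), the gene of the ubiquitin-editing enzyme A20. Tnf had the same 2 waves at larger folds, 30.3-fold over 0 min at 45 min, 9.50-fold at 60 min and then 40.3-fold at 120 min. Nfkbid was closest to Ppp1r15a (0.979), which encodes the stress-response phosphatase subunit GADD34, Rhob (0.978) and Zfp36 (0.971), the gene of the mRNA decay factor tristetraprolin. Zfp36 was 26.6-fold over 0 min at 45 min, 3.56-fold at 75 min and 5.00-fold at 120 min. For Nfkbiz the list held Ccrl2 (0.989), Jund (0.988) and Tmem88 (0.987), the last of which had 1 count at 0 min and 191 at 45 min.

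The late genes had other neighbours. Nfkbib was closest to Sqstm1 (0.996), the gene of the autophagy receptor p62, Traf1 (0.995) and Zyx (0.994). Traf1, a signalling adaptor, was 36.4-fold over 0 min at 120 min, without a trough in normalized counts. Nfkbie was closest to Atp2b4 (0.987), Cdk6 (0.985) and Irak2 (0.982), a kinase of Toll-like receptor signalling, which was at 1.51-fold at 90 min and 2.37-fold at 120 min. Bcl3 was closest to Sash1 (0.989), Hmga2 (0.989) and Stim2 (0.982). These names depend on the measure of likeness, since 3 of the 18 were kept with Spearman coefficients and 6 with Pearson coefficients of unlogged counts.

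The genes of the NF-kB subunits, the proteins that IkB proteins bind, were all called by 90 min. Of the 5 genes 1 was called higher at 30 min (Rel, against 0.937% of all genes), 3 at 45 min (3.41%), 4 at 60 min (3.08%) and at 75 min (4.58%) and all 5 from 90 min on (5.31%, and 6.91% at 120 min), and their median log2 ratio was 1.26 at 60 min and 1.91 at 120 min. Rel, which encodes c-Rel, was the first, at 1.74-fold at 30 min and 12.7-fold at 120 min. At 120 min Relb was at 4.04-fold, Nfkb2 (the p100 precursor of p52, itself an inhibitor) at 3.77-fold and Nfkb1 (the p105 precursor of p50) at 2.49-fold. Rela, the p65 gene, was at 2.39-fold at 60 min, highest at 75 min, at 2.53-fold, and at 2.20-fold at 120 min. Total counts as the scale changed log2 ratios by -0.095 at 60 min and -0.333 at 75 min. The highest library of Rela was then that of 60 min. In the 15 min library, in which 3 IkB genes were called, no subunit exceeded 1.18-fold.

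**Figure D4:**
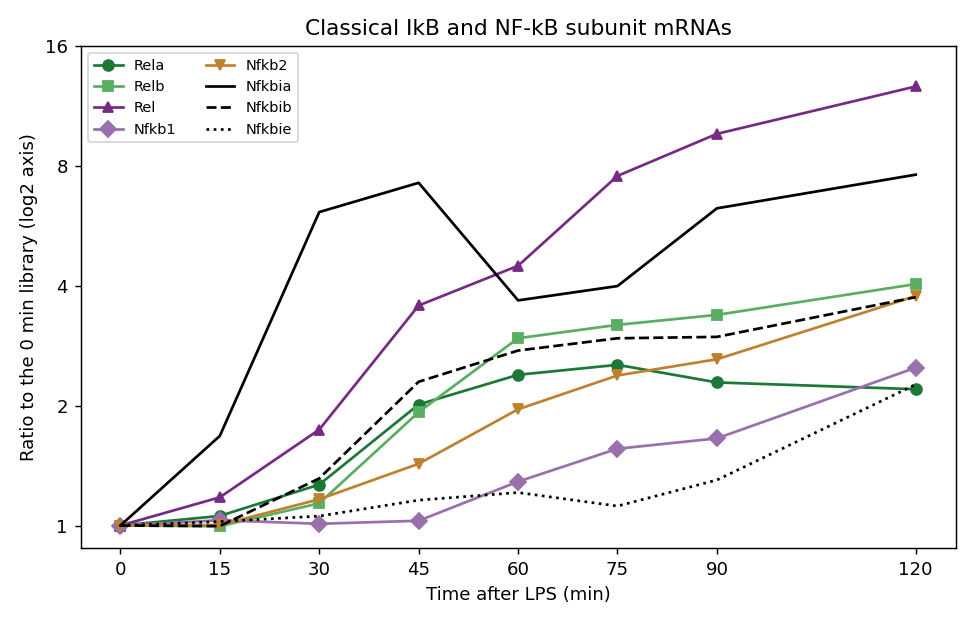
Ratio of normalized counts to the 0 min library (log2 axis) against time after LPS (min) for the 5 NF-kB subunit genes (coloured, with markers) and the 3 classical IkB genes (black lines), 1 value per library. Nfkbia is at 6.12-fold at 30 min, when Rel is at 1.74-fold, and at 3.68-fold at 60 min, when Rel has passed it at 4.49-fold.

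Of the genes listed for the IkB kinases, with related kinases, and for the SCF beta-TrCP ligase, 3 of 10 were called higher at 120 min, against 6.91% of all genes. Of the 5 genes listed for the kinases none was called higher up to 45 min, 1 at 60, 75 and 90 min (3.08%, 4.58% and 5.31% of all genes) and 2 at 120 min. These were Ikbke, the gene of an inducible kinase related to the IkB kinases (2.20-fold at 60 min and 8.12-fold at 120 min), and Chuk, the gene of IKK-alpha (1.57-fold at 120 min). Scaling by total counts changed all log2 ratios at 120 min by -0.202, which places Chuk below the limit of 0.5. The calls of these lists were otherwise not read under other settings. Ikbkb, Ikbkg and Tbk1 were not called, with 1.22-, 0.883- and 1.45-fold at 120 min. Of 5 genes of the SCF beta-TrCP ligase, Fbxw11 was called at 120 min (1.65-fold), and Btrc, which encodes the other beta-TrCP paralog, was not called at 0.670-fold. Of the kB-Ras genes Nkiras1 and Nkiras2 and the distant family relative Nfkbil1, the last was called at 120 min (1.76-fold), and Nkiras2 was not called at 0.650-fold. None of the genes of these lists was called lower. Of all genes 5.99% were called lower at 120 min, so for lists this short the absence says little.

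Among 6 genes of ubiquitin-dependent brakes on the same pathway, 1 was called higher at 30 and 45 min (against 0.937% and 3.41% of all genes) and 3 from 60 min on (3.08% of all genes at 60 min and 6.91% at 120 min). Tnfaip3 was the early one, and its course had the 2 waves of Nfkbia, at 69.1-fold at 45 min, 17.0-fold at 75 min and 39.8-fold at 120 min. Tnip1 and Tnip3, the genes of A20-binding proteins, were at 4.72- and 2.43-fold at 120 min. Cyld and Otud7b, both deubiquitinase genes, and Tnip2 were not called.

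Genes known to require IkB-zeta for full expression were called mostly from 60 min on. Of 7 such genes, 1 was called in the libraries of 30 and 45 min (against 0.937% and 3.41% of all genes), 3 at 60 min (3.08%), 4 in that of 75 min (4.58%) and 5 at 90 and 120 min (5.31% and 6.91%). Csf3, the gene of granulocyte colony-stimulating factor, was the first, with 3, 17, 570 and 11887 counts in the libraries of 0, 30, 60 and 120 min. Il6 had 1, 13, 123 and 1202 counts in those of 0, 60, 90 and 120 min, and Csf2 had 0, 5, 42 and 241 counts in the same libraries. Edn1, the endothelin-1 gene, had 7, 22 and 540 counts at 0, 60 and 120 min. The first calls of Csf3 at 30 min, of Il6 and Edn1 at 60 min and of Csf2 at 75 min (12 counts) thus rest on few counts. Cebpd, which encodes a transcription factor, was at 1.96-fold at 90 min and 4.19-fold at 120 min. Lcn2 and Il12b were not called, with at most 6 and 1 counts in any library. While the counts of Il6, Csf2, Csf3 and Edn1 were all highest at 120 min, Nfkbiz itself was highest at 60 min.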

How the data were processed

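The authors removed ribosomal RNA, prepared directional libraries, processed the reads with CASAVA 1.8.2, aligned them to mouse RefSeq transcripts (mm10, GRCm38) with up to 2 mismatches, discarded reads that matched more than 1 gene, and deposited raw read counts per gene in 1 table of 8 columns. The Bowtie version is not given in the sources used here. DESeq 1.10.1 is named for their tests. No column was left unmatched to a sample, and the table held no further comparison values.

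Counts were divided by median-of-ratios size factors (DESeq2 1.42.0, R 4.3.3; 0.710 to 1.23). For each stimulated library edgeR 4.0.16 exactTest compared it with the 0 min library, with DESeq2's parametric dispersion trend over all 8 libraries treated as replicates. No quasi-likelihood test was made, since a comparison of single time points, with 1 library each, leaves no residual degrees of freedom. On simulated data for 60 against 0 min, 100 of 100 genes raised 4-fold and 100 of 100 lowered 4-fold were recovered, and 13 of 10294 unchanged genes were called. These genes averaged at least 100 normalized counts, and the simulated dispersion was set below the trend fitted to the data, which levels off at 0.0254. The simulation therefore checked the code only and does not bear on smaller changes. Intervals are exact 95% intervals of counting error. For rpkm, length was the number of 58-base sequences found only in a gene's transcripts (GENCODE vM21, matched by accession). Bulk counts of 100250892 to 159077286 per library set the precision. Python 3.11.15, numpy 2.4.6, pandas 2.3.3 and scipy 1.17.1 were used.

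Named genes were the 6 members, called genes of the pathway lists, the 3 genes most like each member, and Tnf. Members and lists were chosen with earlier results of these data known, and so the list counts are no independent evidence. Other scales, dispersions, call rules, filters and library subsets were tried. Their results were read for the 6 members, and for the scales also for all genes, but not for the calls of the pathway lists.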

Additional observations from a re-analysis of the deposited data

How the results depend on the processing

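With 1 library per time point, replicate error could not be estimated under any setting. No paired analysis was possible, since each time point was 1 library. Of the counts of members called higher or peaking early, 107 alternatives gave a value within 1.5 times that reported and 5 did not, and no member was called lower under any alternative run. At 15 min, 1 member (Nfkbiz) was called higher in place of 3 with a log2 limit of 1 and with Benjamini-Hochberg adjustment. Members whose highest library preceded 60 min numbered 2 in place of 1 with totals without Rn45s as the scale, where Nfkbia was highest at 45 min, and without the 60 or the 120 min library. The counts called were 3 at 30 min and 4 at 45 and 60 min under every alternative run, 3 to 4 at 75 min, 4 to 5 at 90 min and 5 to 6 at 120 min. Of the members' log2 ratios and rpkm values, 35 moved by less than counting error, 30 by more, and 1 changed sign: the log2 ratio of Bcl3 from 45 to 60 min was 0.077 with total counts and -0.015 as reported. Scaling by total counts lowered all log2 ratios to 0 min, by up to 0.33 (at 75 min), and scaling by totals without Rn45s changed them by 0.003 at 15 min and by up to -0.19 (at 120 min). At 120 min 53.6% of called genes were higher as reported and 34.1% with either total. The order of the members by rpkm at 0 min was the same with the longest transcript as length. The cause of these changes was not tested.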
